A study of Sus scrofa with 6 samples.

Results

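The circadian clock genes of longissimus dorsi (LD), a long back muscle, were read from the transcript table of 6 Laiwu pigs as the rows that carry the symbol CLOCK, ARNTL, PER1, PER2, PER3, CRY1, CRY2, NR1D1, NR1D2 or DBP. Of these 10 genes, 9 were found under their symbol among the 31908 genes of the table, in 25 transcript rows, and no row was named PER3. The level of a gene was the sum of the FPKM (the fragments of a transcript scaled by its length and by the size of its library) over its transcripts. The pigs, a fatty breed of North China, were all castrated males of 1 breeding farm and had been chosen for extreme intramuscular fat (IMF) content. The S-H group, with high IMF content, held LW63, LW70 and LW119. The S-L group, with low IMF content, held LW82, LW88 and LW90. No treatment or transgene separated the groups, no pigs were pooled, and each pig gave 1 library at a single time. The age of the pigs and the hour at which they were slaughtered are not given in the sources used here. For genes that oscillate over the day, differences in sampling hour between pigs cannot be told apart from differences between the pigs or the groups.

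In mammals the clock is a feedback loop that runs in nearly every cell. CLOCK and ARNTL, the latter also called BMAL1, form a dimer that activates genes with E-box elements, among them the PER and CRY genes, whose proteins return to the nucleus and block the dimer. In a further loop NR1D1 and NR1D2 (REV-ERB alpha and beta) repress ARNTL, while DBP carries the rhythm to output genes. In a tissue with a running clock, the ARNTL transcript peaks when the transcripts of NR1D1, DBP and the PER genes are low. Skeletal muscle has its own clock, which takes part in the daily timing of glucose and lipid use.

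The libraries held muscle RNA. Of 11 muscle fibre markers 6 were found under their symbol and all 6 were above 0 in every pig, with a summed level of 8448 to 12785 FPKM in S-H and 8050 to 11652 FPKM in S-L pigs. TTN, MYH1, MYH2, MYH4 and MB had no row under their symbol. The 7 adipocyte markers found of 8 summed to 435 to 1281 FPKM in S-H and 245 to 368 FPKM in S-L pigs, without overlap. Taken singly, PLIN4 and ADIG among them overlapped between the groups. The sums of the endothelial, fibroblast, leukocyte and red blood cell markers overlapped as well. The libraries also differed in scale: 40.9% of the 12742 tested protein-coding genes were lowest in LW90, and 30.6% were highest in LW119. LW119 had the lowest total FPKM, a sum that includes values converted from another unit as described under the processing. Over the tested genes the log2 fold change, S-H minus S-L, had a median of 0.21, and of 0.0064 after median-ratio size factors. Values are therefore given on the FPKM scale and, where it matters, after size factors.

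In limma a gene passed when its unadjusted p was below 0.01 and its log2 fold change was 1 or more in either direction. None of the 9 clock genes passed, where 1.36% of the tested genes did. At an unadjusted p below 0.05 the count was also 0 of 9, against 8.15% of tested genes. The lowest adjusted p of a clock gene was 0.62 (limma, Benjamini-Hochberg), and over all tested genes it was 0.076. PER1 was the clock gene whose groups did not overlap, with the S-H pigs all below the S-L pigs, as for 1.7% of tested genes. In either direction 14.8% of tested genes had groups without overlap. By sign, 7 clock genes had lower and 2 had higher mean log2 levels in S-H pigs, whereas 74.1% of tested genes had a log2 fold change above 0. The median log2 fold change of the clock genes was -0.15, beside 0.21 for all tested genes, and after size factors it was -0.37 beside 0.0064. In bulk muscle, fewer cells of a type and less RNA per cell cannot be told apart. With 3 pigs against 3, a p that misses a threshold does not show that levels were equal.

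**Figure D1:**
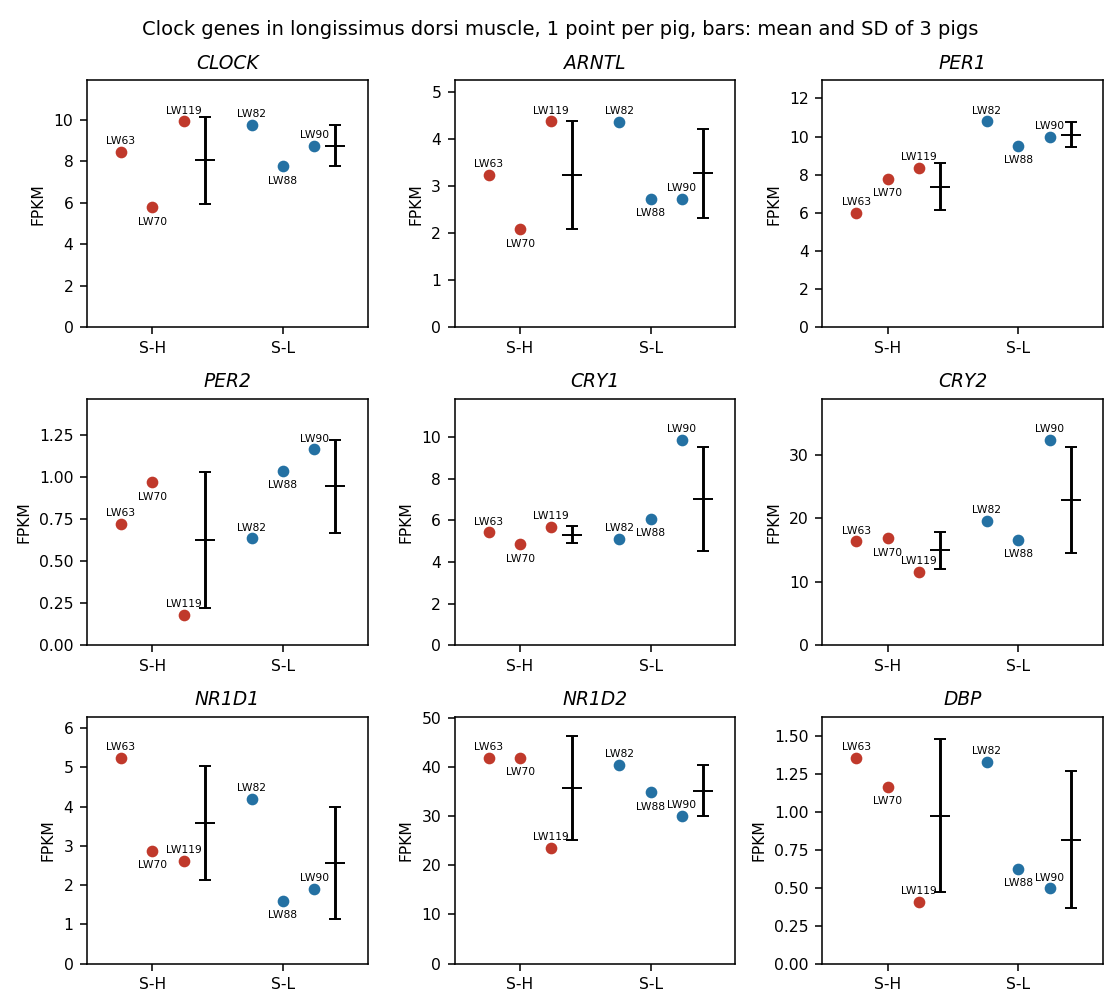
FPKM of each clock gene (vertical axes, linear from 0) in the 3 S-H pigs (red) and the 3 S-L pigs (blue), with the mean and SD of each group in black. For PER1 the S-H pigs, at 5.98 to 8.35 FPKM, sit below the S-L pigs, at 9.52 to 10.8 FPKM, and in the other 8 panels the groups overlap.

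The levels of the clock genes spanned a wide range. NR1D2 was the highest, with a mean over the 6 pigs of 35.4 FPKM, followed by CRY2 with 18.9, PER1 with 8.74, CLOCK with 8.41, CRY1 with 6.17, ARNTL with 3.25, NR1D1 with 3.07, DBP with 0.898 and PER2 with 0.785 FPKM. Between neighbours in this order the ranges over pigs overlapped, except that CRY2 was above PER1, CRY1 above ARNTL and NR1D1 above DBP in 6 of 6 pigs. The ratio of the highest to the lowest pig ran from 1.72 for CLOCK to 6.43 for PER2. The median coefficient of variation over the 6 pigs was 30.2% for the clock genes and 29.1% for all tested genes.

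The groups overlapped for both activators of the loop, and neither passed. CLOCK (chr8:54788864-54910146, build Sscrofa11.1), the histone acetyltransferase partner of the dimer, measured 8.44, 5.78 and 9.93 FPKM in LW63, LW70 and LW119 and 9.78, 7.77 and 8.74 FPKM in LW82, LW88 and LW90. ARNTL (chr2:45895289-46025165), its partner in the dimer, measured 3.24, 2.08 and 4.38 FPKM in the S-H pigs and 4.37, 2.73 and 2.72 FPKM in the S-L pigs, in the same order. On the FPKM scale both genes were highest in LW119 and lowest in LW70, both S-H pigs, so that the S-H group spanned the S-L group. After size factors LW70 was still the lowest pig for both, but CLOCK was highest in LW90 and ARNTL in LW82, both S-L pigs. The log2 fold change was -0.15 ± 0.27 (SE, limma adjusted p = 0.88) for CLOCK and -0.044 ± 0.34 (adjusted p = 0.97) for ARNTL. After size factors the values were -0.37 ± 0.23 and -0.26 ± 0.28.

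The make-up of CLOCK differed in 1 pig. In LW119 the transcript CLOCK-203 took 64.8% of the summed CLOCK level, with 6.43 FPKM, against 0.173% to 4.10% in the other 5 pigs. CLOCK-201 took 2.54% in LW119 and 45.5% to 51.8% in the others. The shares of CLOCK-204, from 21.2% to 34.0%, and of the assembled transcript TCONS_00264936, from 8.94% to 18.1%, were closer among pigs. How an estimator divides reads among overlapping transcripts can set such shares, and its part here was not tested. With CLOCK-201 alone in place of the sum, LW119 stood at 0.253 FPKM, the other pigs at 2.99 to 4.45 FPKM, and the log2 fold change of CLOCK was -1.35 ± 0.90 (limma adjusted p = 0.74).

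**Figure D2:**
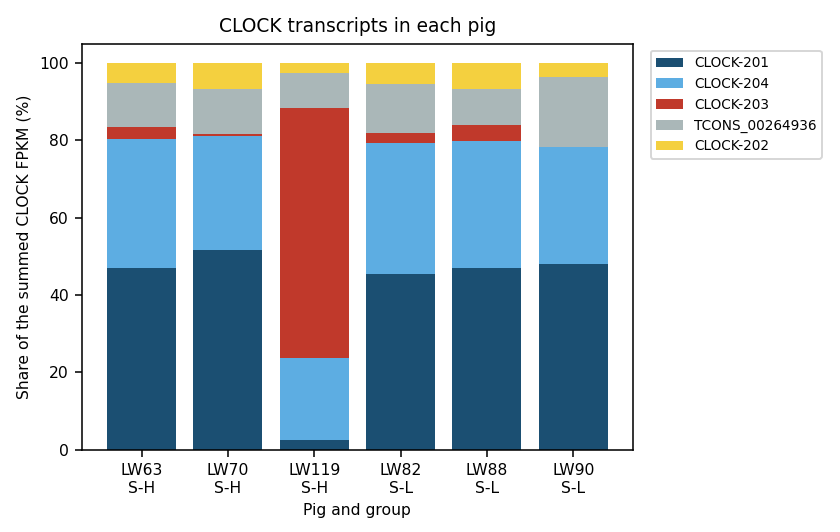
Share of the summed CLOCK FPKM (%, stacked to 100%) taken by each of the 5 CLOCK transcripts in the 6 pigs. CLOCK-203 takes 64.8% in LW119 and at most 4.10% in any other pig, while CLOCK-201 takes 2.54% in LW119 and at least 45.5% elsewhere.

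ARNTL was carried mainly by ARNTL-205, with 53.9% of the level over all pigs, and ARNTL-201, with 25.9%. ARNTL-205 took between 45.7% of the level in LW119 and 69.4% in LW90. The assembled transcript ARNTL-OT1 added 8.23% over all pigs and was listed at 0 in LW63. An unnamed gene lies within ARNTL over 3498 bases, with a mean of 0.138 FPKM.

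Among the repressors, PER1 and PER2 were both lower in S-H pigs by sign. PER1 (chr12:53361868-53376611), the period gene that also responds acutely to glucocorticoids, measured 5.98, 7.80 and 8.35 FPKM in LW63, LW70 and LW119. In LW82, LW88 and LW90 it measured 10.8, 9.52 and 9.99 FPKM. The highest S-H pig was thus below the lowest S-L pig. Its log2 fold change was -0.46 ± 0.24 (limma adjusted p = 0.62), and the exact two-sided permutation p was 0.10, the smallest that 3 pigs against 3 allow. After size factors the groups were still apart, at 5.28 to 8.04 against 9.80 to 12.4, and the log2 fold change was -0.68 ± 0.23 (limma adjusted p = 0.70), with an unadjusted p below 0.05, which no other clock gene had on that scale.

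The PER1 level was divided between PER1-202, with 56.2% over all pigs, and PER1-201, with 43.8%. PER1-201 took the larger share in LW119, 62.0%, and in LW82, 58.3%, and between 30.6% and 38.4% in the other 4 pigs. These are the 2 pigs in which ARNTL was highest, 1 from each group. PER1-203 was listed at 0 in every pig.

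PER2 (chr15:137793419-137837236), the second period gene, was the lowest of the repressors and had the widest ratio of highest to lowest pig. It measured 0.721, 0.970 and 0.181 FPKM in LW63, LW70 and LW119 and 0.635, 1.04 and 1.16 FPKM in LW82, LW88 and LW90. LW119 stood far below the other pigs, and the groups overlapped. The log2 fold change was -0.70 ± 0.50 (limma adjusted p = 0.69), and it was -0.12 without LW119 and -1.09 without LW70. PER2-202 made up 90.6% of the level.

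A long noncoding RNA named by the authors as antisense to PER2 (TCONS_00109214, chr15:137833578-137838320) overlaps the gene by 3659 bases, and was looked at after its values were seen. It measured 0.340, 0.414 and 0.466 FPKM in the S-H pigs and 0.277, 0.174 and 0.143 FPKM in the S-L pigs. The S-H pigs were all above the S-L pigs, as for 6.09% of 5140 lncRNAs, with a log2 fold change of 0.78 on the log2(FPKM + 0.1) scale. Its Pearson r with PER2 over the 6 pigs was -0.69 and Spearman's rho -0.77, and r was -0.49 without LW90 and LW88, the pigs farthest from its median. The libraries kept strand information, but whether the quantification used it is not given in the sources used here, and without strand, reads from PER2 and this RNA cannot be told apart where they overlap.

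The cryptochromes, which bind the dimer together with the PER proteins, were highest in the same S-L pig. CRY1 (chr5:13275544-13364594) measured 5.42, 4.86 and 5.67 FPKM in LW63, LW70 and LW119 and 5.12, 6.08 and 9.88 FPKM in LW82, LW88 and LW90. CRY2 (chr2:16585966-16620405) measured 16.4, 16.9 and 11.6 FPKM in the S-H pigs and 19.7, 16.7 and 32.4 FPKM in the S-L pigs. LW90 was highest for PER2, CRY1 and CRY2, although only 5.49% of tested genes were highest in that pig. The log2 fold change was -0.34 ± 0.29 (limma adjusted p = 0.73) for CRY1 and -0.57 ± 0.30 (adjusted p = 0.62) for CRY2, and after size factors they were -0.56 ± 0.32 and -0.79 ± 0.36. LW90 carried much of both, since without it the log2 fold change was -0.070 for CRY1 and -0.29 for CRY2. Without LW82 that of CRY1 was -0.54, and without LW88 that of CRY2 was -0.77, with an unadjusted p below 0.05. An assembled transcript of TMEM263 overlaps CRY1 by 8986 bases, so that reads could be divided between these genes.

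The nuclear receptors of the further loop did not share 1 order. NR1D1 (chr12:22263657-22271643) measured 5.24, 2.87 and 2.62 FPKM in LW63, LW70 and LW119 and 4.20, 1.59 and 1.91 FPKM in LW82, LW88 and LW90. It had the largest positive log2 fold change of the clock genes, 0.52 ± 0.41 (limma adjusted p = 0.71), and 1 pig of each group stood above the rest. This value was 0.31 after size factors, 0.22 without LW63, 0.26 without LW88 and 0.93 without LW82, the last with an unadjusted p below 0.05. NR1D2 (chr13:10756926-10791210) measured 41.7, 41.8 and 23.5 FPKM in the S-H pigs and 40.4, 34.8 and 30.1 FPKM in the S-L pigs. LW119 was its lowest pig, and the log2 fold change of NR1D2 was -0.014 ± 0.28 (limma adjusted p = 0.99).

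NR1D1 shares sequence with its neighbours, and its values are less certain. THRA, from whose opposite strand NR1D1 is transcribed, overlaps it by up to 1582 bases, and an assembled transcript of MED24 with a mean of 24.8 FPKM spans all of it. The assembled transcript TCONS_00050844 took 29.4% of the NR1D1 level in LW82 and 14.2% in LW63, the pigs with the highest sums, and 1.01% to 3.05% in the others. NR1D1-201 alone was highest in LW63, with 4.49 FPKM, while LW82, with 2.97 FPKM, lay close to LW70 with 2.79 and LW119 with 2.58 FPKM.

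DBP (chr6:53986959-53993020), the PAR bZIP factor that is a direct target of the dimer, measured 1.36, 1.17 and 0.407 FPKM in LW63, LW70 and LW119. In LW82, LW88 and LW90 it measured 1.33, 0.625 and 0.496 FPKM. Each group held pigs above 1 FPKM and pigs below it, and the log2 fold change was 0.20 ± 0.49 (limma adjusted p = 0.91). DBP had 1 transcript, which an unnamed gene overlaps by 161 bases.

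A gene without a symbol (ENSSSCG00000028572, chr6:68488263-68534004) lies wholly inside the RefSeq locus of PER3 and covers 74.9% of it. By its lack of a symbol it was not counted among the clock genes and is given as a description. It measured 4.28, 4.42 and 2.16 FPKM in LW63, LW70 and LW119 and 4.19, 2.24 and 2.40 FPKM in LW82, LW88 and LW90. Of its 4 transcripts 1 was among those converted from TPM, and 3 were assembled. As deposited, its sums were 4.45, 4.66 and 2.46 in the S-H pigs and 4.31, 2.36 and 2.51 in the S-L pigs, so that LW88 and not LW119 was the lowest. On either scale, like DBP, it was high in LW63, LW70 and LW82 and low in LW119, LW88 and LW90, and its log2 fold change after conversion was 0.28 ± 0.36 (limma adjusted p = 0.83).

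The next question was whether the activator and the repressor arms moved oppositely from pig to pig. Between groups the signs did not divide the arms. The log2 fold change was negative for the activators CLOCK and ARNTL and also for PER1, PER2, CRY1, CRY2 and NR1D2. It was positive, opposite to the activators, for NR1D1 (0.52) and DBP (0.20). The mean log2 levels of ARNTL and NR1D2 were nearly equal in the groups, and their signs turned under several settings.

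Within groups the plainest opposition was that of ARNTL and PER2. In the S-H pigs ARNTL ran from high to low in the order LW119, LW63, LW70, and PER2 ran in the reverse order. In the S-L pigs the order of ARNTL was LW82, LW88, LW90, and PER2 again ran in reverse, although LW88 and LW90 differed by only 2.73 against 2.72 FPKM for ARNTL. After size factors these 2 pigs changed places for ARNTL, and the reverse order held only among the S-H pigs. Over all 6 pigs Pearson r between ARNTL and PER2 was -0.75 (exact permutation p = 0.057, adjusted p = 0.68 over 36 pairs) and Spearman's rho was -0.83 (exact permutation p = 0.058, adjusted p = 0.70). For deviations from the group means r was -0.90, after size factors -0.46, without LW119 -0.77, and without the 2 pigs farthest from the ARNTL median, LW119 and LW82, -0.46. Of all tested genes 2.11% had a lower r with ARNTL than PER2 did.

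**Figure D3:**
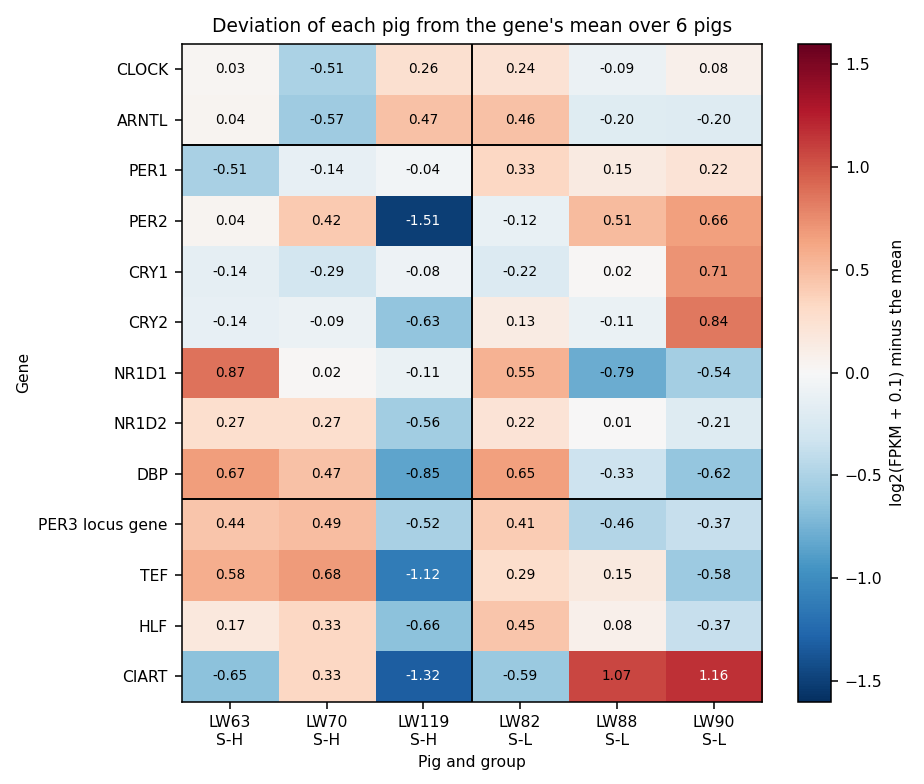
Deviation of each pig from the mean over the 6 pigs, in log2(FPKM + 0.1), for the activators (top block), the repressor and output genes (middle block) and 4 further genes, of which TEF, HLF and CIART were drawn after their values were seen. LW119 reads 0.47 for ARNTL and -1.51 for PER2, and it is also low for CRY2, NR1D2, DBP, TEF and HLF.

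CLOCK showed the same opposition to PER2 less firmly, with r = -0.56 (exact permutation p = 0.24) and rho = -0.60 (exact permutation p = 0.24). For deviations from the group means r was -0.83, without LW119 -0.43, and after size factors it was 0.00092. The high CLOCK sum of LW119 was 64.8% CLOCK-203, and by CLOCK-201 alone LW119 was the lowest pig, as it was for PER2. The r of CLOCK-201 with PER2 was not computed. Across the 14 pairs of an activator with a repressor or output gene, 9 had a negative r, also 9 for deviations from the group means, and the median r was -0.14. Negative r with ARNTL was found for 5 of 7 genes, beside 31.4% of all tested genes, and with CLOCK for 4 of 7, beside 41.1%. None of the 14 pairs had an exact permutation p below 0.05. LW119 decided part of this count, since 5 of 14 pairs were negative without it, and 6 of 14 were negative after size factors.

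The NR1D pair, which represses ARNTL, split in sign. Pearson r with ARNTL was 0.38 for NR1D1 (exact permutation p = 0.46, rho 0.26 with p = 0.66) and -0.39 for NR1D2 (exact permutation p = 0.47, rho -0.49 with p = 0.36). The r of NR1D2 turned to 0.16 without LW119, while that of NR1D1 was 0.52. DBP had an r of -0.11 with ARNTL (exact permutation p = 0.85, rho -0.086 with p = 0.92).

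**Figure D4:**
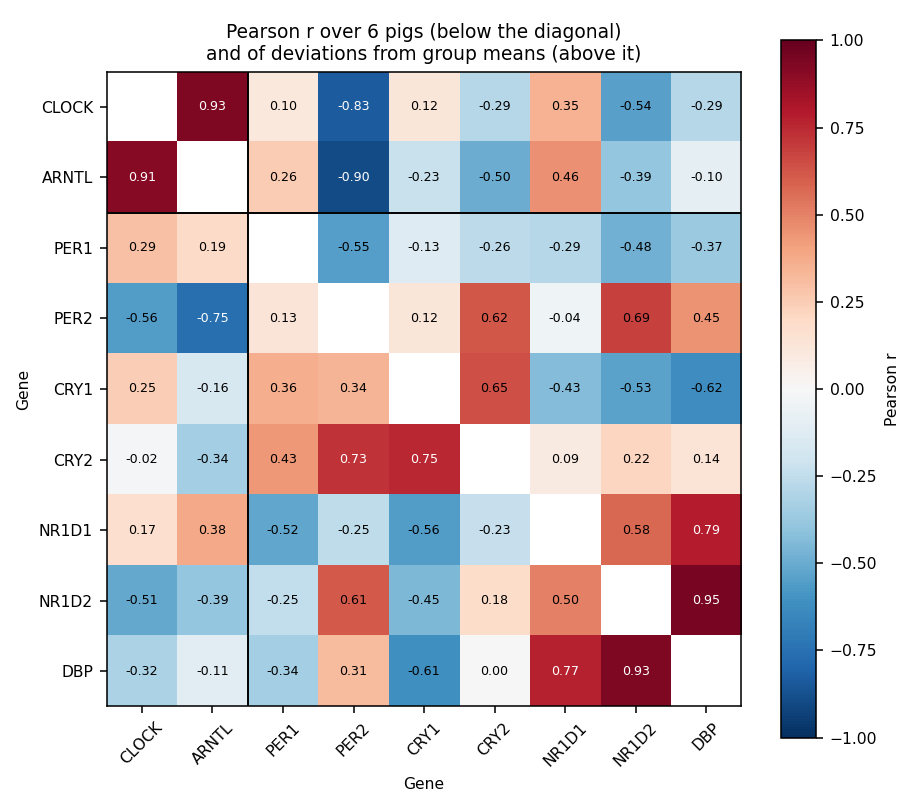
Pearson r between the clock genes on log2(FPKM + 0.1), over the 6 pigs below the diagonal and for deviations from the group means above it, with lines between activators and repressor or output genes. CLOCK with ARNTL reads 0.91 and 0.93, NR1D2 with DBP 0.93 and 0.95, and ARNTL with PER2 -0.75 and -0.90.

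Within an arm, 2 of the 36 pairs had an exact permutation p below 0.05, and none after adjustment, with a lowest adjusted p of 0.18. CLOCK and ARNTL, the partners of the dimer, had an r of 0.91 (exact permutation p = 0.0097, adjusted p = 0.18) and a rho of 0.83 (exact permutation p = 0.058, adjusted p = 0.70). Their r was 0.84 without LW70 and LW119, the pigs farthest from the CLOCK median, 0.93 for deviations from the group means and 0.83 after size factors. NR1D2 and DBP had an r of 0.93 (exact permutation p = 0.0056, adjusted p = 0.18) and a rho of 0.83 (exact permutation p = 0.058, adjusted p = 0.70). This pair kept an r of 0.95 without LW119 and LW90, 0.95 for deviations from the group means and 0.83 after size factors.

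The repressor and output genes did not move as 1 block. Of their 21 pairs 13 had a positive r, with a median of 0.18. NR1D1 and DBP had an r of 0.77 (exact permutation p = 0.10) and a rho of 0.77 (exact permutation p = 0.10), and this r was 0.91 without LW119. The assembled transcript TCONS_00050844 held 29.4% of the NR1D1 level in LW82 and 14.2% in LW63, and this r was not computed without it. PER2 and NR1D2 had an r of 0.61 (exact permutation p = 0.18, rho 0.086 with p = 0.92), which turned to -0.74 without LW119. CRY1 and CRY2 had an r of 0.75 (exact permutation p = 0.15, rho 0.086 with p = 0.92), and without LW90 and LW70, the pigs farthest from the CRY1 median, it was -0.42. The last 2 relations thus rested on those pigs. PER2, CRY2, NR1D2 and DBP were lowest in LW119, that is 4 of 7 repressor and output genes, beside 8.56% of tested genes.

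TEF and HLF, the PAR bZIP factors related to DBP, were paired with these genes after their values were seen, so that the following correlations carry no test. TEF measured 5.97, 6.38 and 1.77 FPKM in LW63, LW70 and LW119 and 4.84, 4.41 and 2.61 FPKM in LW82, LW88 and LW90. HLF measured 2.78, 3.13 and 1.53 FPKM in the S-H pigs and 3.40, 2.62 and 1.89 FPKM in the S-L pigs. Both were lowest in LW119 and next lowest in LW90, in the manner of NR1D2. Pearson r with NR1D2 was 0.98 for TEF and 0.96 for HLF, and with DBP it was 0.90 and 0.91. Without LW119 and LW90 the r with NR1D2 was 0.85 for TEF and 0.59 for HLF. The gene at the PER3 locus had an r of 0.96 with DBP, 0.86 with NR1D2 and 0.80 with NR1D1, and as deposited these were 0.94, 0.82 and 0.82.

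The genes most like a clock gene over the 6 pigs were taken from 9023 tested genes with a symbol and a mean of at least 1 FPKM, by Pearson r on log2(FPKM + 0.1), as a description. For ARNTL they were NFYA with an r of 0.999, ARHGAP24 with 0.995, AAK1 with 0.994, ATRN with 0.993 and EP400 with 0.992. The genes most unlike ARNTL were NUDT14 with an r of -0.98, NDUFA13 with -0.97, PAIP2 with -0.97, HSCB with -0.96 and C7orf50 with -0.96. For NR1D1 the closest were TTC21B with 0.999, TMEM245 with 0.991, TRIM13 with 0.991, BTBD3 with 0.986 and BSDC1 with 0.985. An absolute r above 0.95 was reached by 80 genes for ARNTL and by 42 for NR1D1, and the 6 libraries and their scale are shared by all of these points.

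The wider clock pathway was described by a list of 25 further genes, 21 of which were tested. The list was written from general knowledge, but with earlier results of these data known, so its counts are a description only. FBXL21 had no row under its symbol, RORB was under the minimum level, and TIMELESS and NONO were not assigned as protein-coding by the matching used here. TIMELESS measured 0.216, 0.264 and 0.623 FPKM in LW63, LW70 and LW119 and 0.0997, 0.148 and 0.0652 FPKM in LW82, LW88 and LW90. Its S-H pigs were thus all above its S-L pigs, as for 13.1% of tested genes, and NONO overlapped. With all annotated genes fitted, 23 list genes were tested, 1 passed and 6 had an unadjusted limma p below 0.05. In limma 1 of the 21 passed, beside 1.36% of all tested genes, and at an unadjusted p below 0.05 there was 1 gene higher and 4 genes lower in S-H pigs, beside 7.08% and 1.08% of tested genes. The median log2 fold change of the list was -0.061, and -0.28 after size factors.

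The gene that passed was ARNTL2, a paralog of ARNTL that can also pair with CLOCK. It measured 2.38, 1.03 and 1.704 FPKM in LW63, LW70 and LW119 and 0.679, 0.323 and 0.205 FPKM in LW82, LW88 and LW90. The lowest S-H pig was above the highest S-L pig, as for 13.1% of tested genes. ARNTL2 rose by 1.88 ± 0.44 on the log2 scale (limma adjusted p = 0.48). It passed in 18 of 19 other settings, the exception being a pseudocount of 1 with a log2 fold change of 0.93. The summed level of the adipocyte markers was also higher in every S-H than in every S-L pig, although PLIN4 and ADIG each overlapped between the groups. The part of adipocytes in this result was not tested.

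The genes with a p below 0.05 in the other direction were RORA, CIPC, USP2 and SIK1. In each of them every S-H pig was below every S-L pig, as for 1.7% of all tested genes. They were picked by their p on the same values, so the lack of overlap is no further support. RORA, the nuclear receptor that activates ARNTL against the NR1D repressors, measured 15.9, 13.7 and 17.1 FPKM in the S-H pigs and 26.8, 20.9 and 40.8 FPKM in the S-L pigs. The log2 fold change of RORA was -0.87 ± 0.28 (limma adjusted p = 0.58). SIK1, a kinase that limits resetting of the clock by light, measured 5.48, 4.76 and 8.86 FPKM against 11.2, 10.3 and 16.04 FPKM, with a log2 fold change of -0.99 ± 0.30 (limma adjusted p = 0.58).

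CIPC, which inhibits the CLOCK dimer, measured 2.09, 2.43 and 2.03 FPKM in the S-H pigs and 4.13, 4.27 and 3.77 FPKM in the S-L pigs, a log2 fold change of -0.87 ± 0.25 (limma adjusted p = 0.55). Without assembled transcripts its log2 fold change was -0.045. USP2, a deubiquitinase with clock proteins among its substrates, measured 7.45, 8.14 and 9.25 FPKM against 12.4, 12.1 and 14.3 FPKM, a log2 fold change of -0.64 ± 0.23 (limma adjusted p = 0.58). After size factors RORA, CIPC and SIK1 also passed, at log2 fold changes of -1.09, -1.08 and -1.21. Of the 19 other settings, RORA passed in 3, CIPC in 2, SIK1 in 6 and USP2 in 0. The unadjusted limma p was below 0.05 in 18 of them for RORA, 17 for CIPC, 19 for SIK1 and 15 for USP2.

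**Figure D5:**
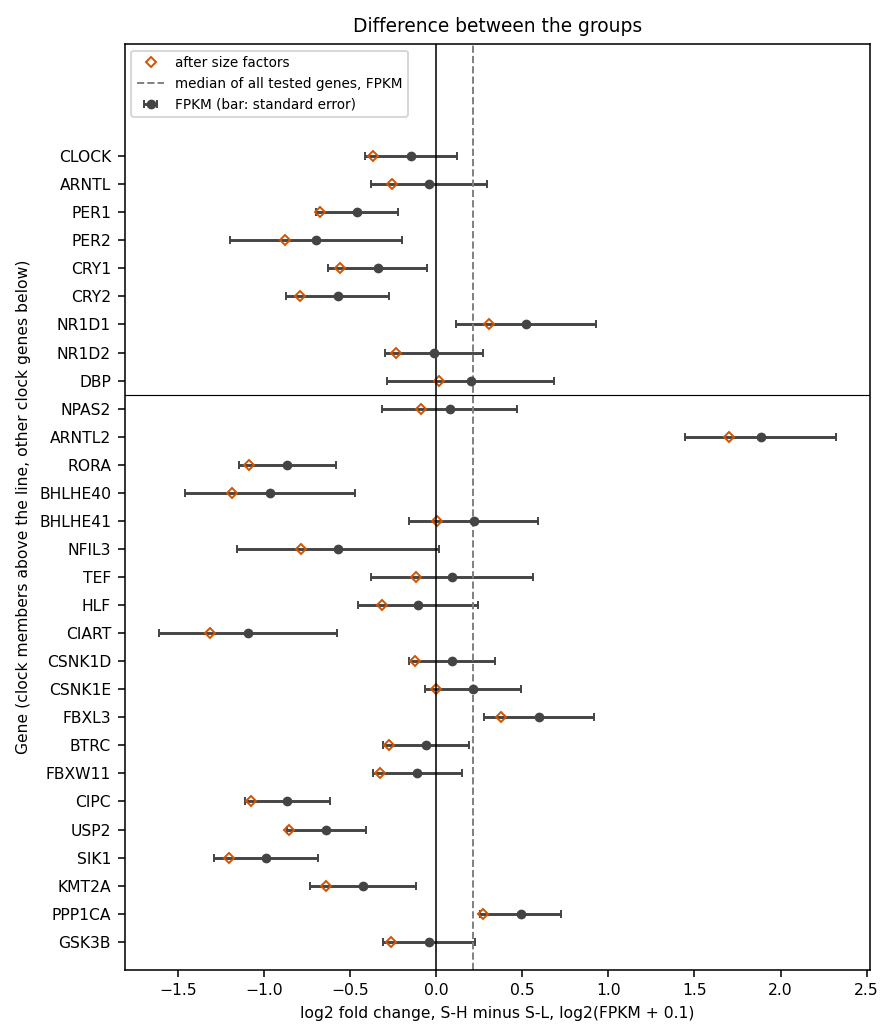
Log2 fold change between the groups (S-H minus S-L, horizontal axis) for the 9 clock genes above the line and 20 of the 21 tested further clock genes below it, with standard errors from limma as bars and values after size factors as open diamonds. ARNTL2 stands at 1.88, and 7 of the 9 clock genes lie left of 0, while the dashed median of all tested genes lies at 0.21.

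The E-box repressors varied widely within groups. CIART measured 7.57, 15.1 and 4.71 FPKM in LW63, LW70 and LW119 and 7.90, 25.2 and 26.9 FPKM in LW82, LW88 and LW90 (log2 fold change -1.10 ± 0.52, limma adjusted p = 0.61), so that it was highest in the S-L pigs with low ARNTL. BHLHE40 measured 10.03, 8.25 and 19.0 FPKM against 12.1, 50.6 and 19.4 FPKM (log2 fold change -0.97 ± 0.49, limma adjusted p = 0.62), where LW88 stood apart. BHLHE41 lay between 2.38 and 6.70 FPKM, both extremes being S-L pigs.

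NPAS2, the stand-in for CLOCK, lay between 0.229 and 0.529 FPKM, and both extremes were S-H pigs. NFIL3, the repressor that opposes DBP on D-box elements, lay between 0.752 FPKM in LW70 and 5.16 FPKM in LW90, with 5.09 FPKM in LW119. The limma p of these genes and of BHLHE41, TEF and HLF was above 0.05.

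Of 20 genes known as clock outputs or as daily rhythmic in muscle 19 were tested, and 2 passed, beside 1.36% of all tested genes. This list, too, was written with earlier results of these data known, and its counts are a description only. PPARGC1A, the coactivator of mitochondrial biogenesis, measured 10.01, 22.4 and 15.1 FPKM in the S-H pigs and 25.5, 76.0 and 43.7 FPKM in the S-L pigs. PPARGC1A fell by 1.54 ± 0.41 on the log2 scale (limma adjusted p = 0.54). It no longer passed without LW63 (log2 fold change -1.25), without LW88 (-1.15) or without LW90 (-1.54), nor with its highest transcript in place of the sum (-1.54).

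TSPO, a mitochondrial outer membrane protein, measured 72.2, 27.6 and 46.9 FPKM in the S-H pigs and 16.7, 27.2 and 10.7 FPKM in the S-L pigs, and rose by 1.41 ± 0.41 (limma adjusted p = 0.55). It passed in 10 of 19 other settings and failed after size factors (log2 fold change 1.19) and without LW63 (1.08), LW119 (1.39), LW82 (1.40) or LW90 (1.09). The summed level of the adipocyte markers was also higher in every S-H than in every S-L pig, but its order over the pigs was not that of TSPO. In LW70 and LW119 the sums were 711 and 435 FPKM, against 27.6 and 46.9 FPKM for TSPO. The part of adipocytes was not tested. The median log2 fold change of the 19 genes was 0.023, and -0.20 after size factors. Of 10 genes that rise with glucocorticoids, a hormone that also induces PER1, 9 were tested. None passed and none had a p below 0.05, beside 1.36% and 8.15% of all tested genes. Their median log2 fold change was 0.19, and -0.026 after size factors.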

How the data were processed

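RNA from LD muscle of 3 S-H and 3 S-L pigs was sequenced from strand-specific libraries depleted of ribosomal RNA. The authors aligned filtered reads to Sscrofa11.1 (Hisat2) and used StringTie to assemble transcripts and estimate their levels. The deposited values are FPKM per transcript and pig, computed by the authors, for 83119 transcripts. From the values, 21104 Ensembl transcripts without a symbol appeared to be in TPM in the deposited table, but this unit was not tested. They were converted with 1 factor per pig, between 0.639 and 0.847, solved from the table itself on that assumption. No row of the 9 clock genes was among them. The paper lists the clean reads of each library, but read counts per transcript were not analysed here. The precision of a value therefore rests on the spread among the pigs. Standard errors are those of limma, which pools the spread within both groups and moderates it over all tested genes. All p values measure the spread between these animals alone.

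FPKM was summed over the transcripts of a gene. Gene types came from RefSeq (Sscrofa11.1), with 14189 genes matched on their symbol and 4391 on an overlap of 50% or more in both directions, and 17087 were protein-coding. Of these, 12742 with a mean of at least 0.1 FPKM were fitted on log2(FPKM + 0.1) in limma 3.58.1 (R 4.3.3) with the trend option. A fold change on this scale understates the change of low genes. The thresholds were those of the study's methods (p below 0.01, log2 fold change of 1 or more in either direction), and adjusted p values are Benjamini-Hochberg over all tested genes. The fit was tested on simulated data. Correlations used all 720 pairings of the 6 pigs in exact two-sided permutation tests, adjusted over the 36 pairs of clock genes. Sums, correlations and permutations were run in Python 3.11.15 (numpy 2.4.6, pandas 2.3.3).

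The genes and lists were chosen with earlier results of these data known. Named beside the 9 genes were list genes with p below 0.05, NPAS2, RORA, BHLHE40, BHLHE41, NFIL3, TEF, HLF and CIART whatever their values, the 5 genes closest to ARNTL and NR1D1 and the 5 least like ARNTL, and transcripts with at least 10% of a gene. The other settings changed the pseudocount (1 or 0.01), the minimum (none or a mean of 1 FPKM), the scaling (TPM, size factors by median ratios, quantiles), the variance model (no trend, robust), the gene value (highest transcript), the genes fitted (all annotated) and the pigs (each left out). For correlations they were also deviations from group means, FPKM and Spearman's rho. The settings without assembled transcripts and with values as deposited were added after seeing the data. CircRNAs and the authors' RT-qPCR were not analysed here, and 1 gene of the lists is not reported here.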

Additional observations from a re-analysis of the deposited data

How the results depend on the processing

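The count of clock genes past the thresholds was 0 in each of the 19 other settings, and of 169 log2 fold changes of clock genes under them 157 kept their direction, none past the thresholds. The other 12 changed sign. ARNTL stood at 0.087 with TPM, 0.022 without assembled transcripts, 0.23 without LW70 and 0.18 without LW82 (range with a pig left out -0.29 to 0.23). NR1D2 stood at 0.12 with TPM, 0.0037 with its highest transcript, 0.26 without LW119 and 0.092 without LW82 (range -0.15 to 0.26). DBP stood at -0.11 after quantile normalization, -0.089 without LW63 and -0.059 without LW90 (range -0.089 to 0.67), and CLOCK at 0.070 without LW70 (range -0.32 to 0.070). The cause was not tested. The 9 negative activator pairs became 5 with the highest transcript of each gene and 5 (without LW119) to 10 (without LW82) with a pig left out. The further clock genes past the thresholds, 1 of 21, became 0 with a pseudocount of 1, 2 with 0.01, 4 after size factors, 4 after quantile normalization, 2 without assembled transcripts and 1 to 3 with a pig left out, of which 2 without LW119, 2 without LW82 and 3 without LW88. Of all tested genes 173 passed (149 higher and 24 lower in S-H), 77 with a pseudocount of 1, 260 with TPM and 86 (without LW90) to 261 (without LW82) with a pig left out. The split was 84 higher and 55 lower after size factors and 69 and 62 after quantile normalization. No paired analysis was possible because the groups hold different pigs and the labels give no numbers that pair them. Sampling hour, age and read depth were not analysed here, and 1 sample per pig gives no phase or amplitude of any rhythm.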
